A study of Mus musculus with 6 samples.

Results

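The MHC class I and antigen processing genes H2-K1, H2-D1, B2m, Tap1, Tap2, Tapbp, Psmb8, Psmb9, Psmb10 and Nlrc5 were examined in LPS-treated macrophages with and without knockdown of PGAM5, a mitochondrial phosphatase. These 10 genes were chosen by name, as the rows whose GENCODE M21 symbol was on that list, and all 10 were found among the 54532 genes in the expression tables. The study asked how PGAM5 takes part in the inflammatory response of macrophages. RNA-seq was available for 6 libraries of immortalized bone marrow-derived macrophages (iBMDMs), 3 from cells infected with a control shRNA (control) and 3 from cells infected with a shRNA against PGAM5 (PGAM5 KD). Both groups received LPS, a bacterial cell wall component that signals through TLR4, at 100 ng/ml for 4 hours, so the comparison is between treated cells, and untreated cells were not analysed here. The iBMDMs came from BMDMs of C57Bl/6 wild-type mice that were transformed with retroviruses carrying v-raf and v-myc, and both groups therefore carry these oncogenes and a lentiviral shRNA. The number of different shRNAs against PGAM5 is not given in the sources used here, and an effect of losing PGAM5 and an effect of the particular shRNA or infected population cannot be told apart. Whether the 3 libraries of a group were separate cultures is not given, and p-values measure only the spread between these libraries.

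MHC class I molecules carry peptides from inside the cell to its surface, where CD8 T cells read them. A polymorphic heavy chain, H2-K or H2-D in mice, pairs with the invariant light chain β2-microglobulin. Peptides are cut by the proteasome, whose catalytic subunits can be exchanged for the immunoproteasome subunits encoded by Psmb8, Psmb9 and Psmb10. They are pumped into the endoplasmic reticulum by the TAP transporter, made of Tap1 and Tap2, and loaded with the help of tapasin, the product of Tapbp. NLRC5 is a transactivator of class I genes, and interferons and NF-κB signaling are known inducers of this machinery in macrophages.

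The level of Pgam5 itself was 17.1, 13.0 and 13.4 FPKM (fragments per kilobase of exon, scaled to library depth) in control and 4.33, 5.75 and 4.53 FPKM in PGAM5 KD libraries. All KD libraries were below all control libraries, and the log2 fold change was -1.40 (SE 0.13, limma adjusted p = 0.000358). Library depth, recovered from the FPKM values, was between 18163462 and 24388914 fragments. Of 10 macrophage markers, 8 had a mean of at least 1 FPKM, and their summed level was 2980 to 3060 FPKM in control and 2690 to 2720 FPKM in PGAM5 KD libraries. Of the macrophage markers, 4 were higher and 3 lower in PGAM5 KD cells, and Mertk was listed at 0 in every library. Dendritic cell, B cell, T and NK cell, neutrophil and fibroblast markers summed to at most 0.613, 0.283, 0.158, 0.568 and 0.258 FPKM in any library, and no gene of these lists reached a mean of 1 FPKM. The part of the macrophage marker shifts in the results below was not tested.

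Most of the 10 class I genes were higher in PGAM5 KD than in control iBMDMs. Of the 10 genes, 9 were higher at an adjusted p under 0.05, where 16.8% of all 10540 genes tested were higher and 14.9% were lower. H2-K1 did not pass this threshold. With FPKM scaled to TPM, 7 of the 10 were called, and the split over all genes moved from 1771 higher and 1575 lower to 1088 higher and 2282 lower. The count was also 7 without control replicate 1 or without KD replicate 2. The median log2 fold change was 0.50 over the 10 genes and 0.0135 over all genes tested. In each of the 10 genes every PGAM5 KD library lay above every control library, an arrangement seen in 24.2% of all genes tested. All 10 had a mean of at least 1 FPKM in control libraries alone, so none entered the test only through the KD group. The changes were moderate. With limma, 0 of the 10 genes combined an adjusted p under 0.05 with a log2 fold change above 1, the size at which a gene was called differentially expressed and which 0.787% of all genes passed upward. The count was also 0 at an unadjusted p under 0.05, and it was 1 with voom on the recovered fragments, through Tap1 at 1.01. In bulk RNA, more cells making a transcript and more transcript per cell cannot be told apart.

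**Figure D1:**
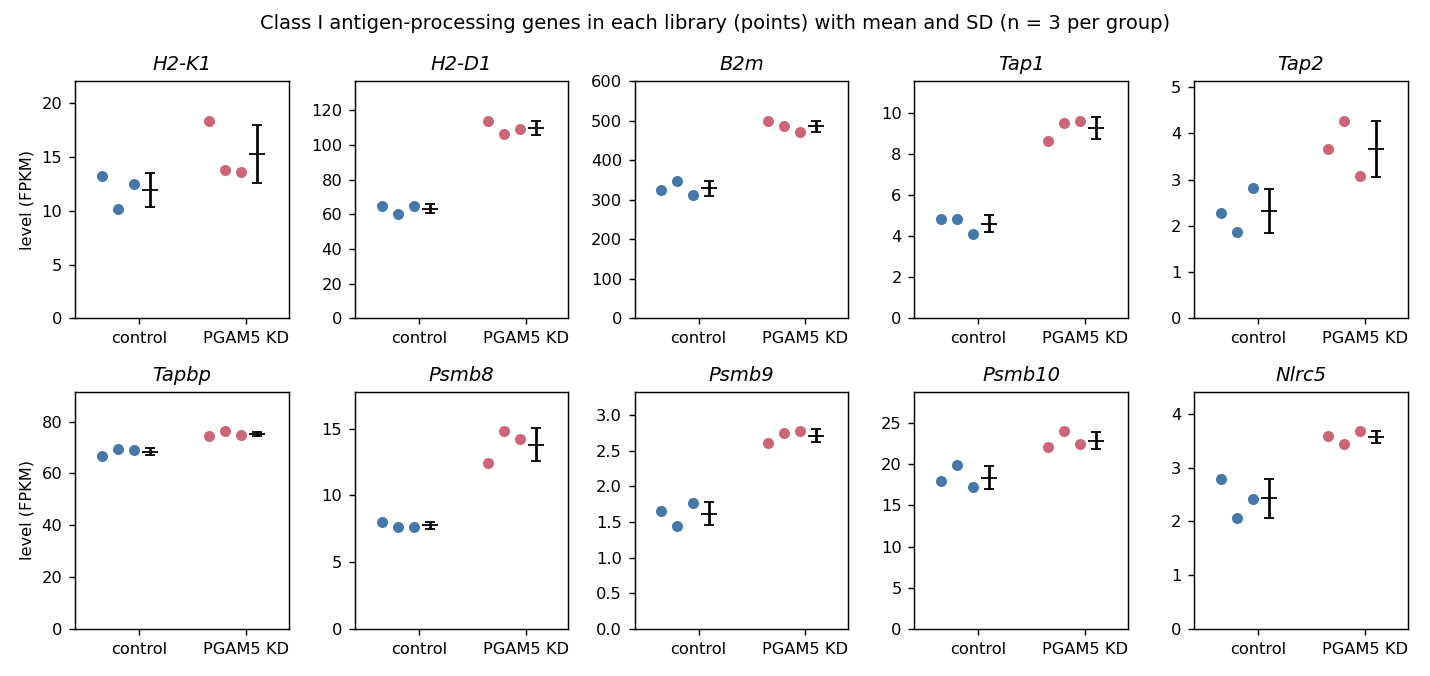
Levels of the 10 class I processing genes in each library. The vertical axis of each panel starts at 0 and gives FPKM, points are the 3 control and 3 PGAM5 KD libraries, and the bar beside them is the mean with the SD. In every panel the lowest PGAM5 KD point lies above the highest control point, most narrowly for H2-K1, Tapbp and Tap2.

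**Figure D2:**
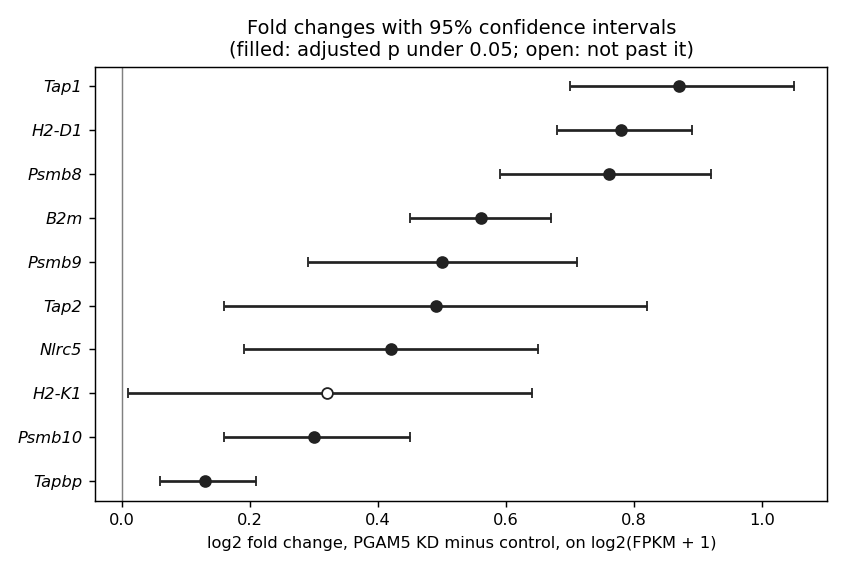
Fold changes of the same genes in limma, as log2 fold change of PGAM5 KD over control on the log2(FPKM + 1) scale with 95% confidence intervals. Filled points passed an adjusted p under 0.05. Values run from 0.13 for Tapbp to 0.87 for Tap1, and the open point is H2-K1 at 0.32.

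Classical class I heavy chains and the light chain were examined first. H2-D1, which encodes the H2-D heavy chain (chr17:35262730-35267499, plus strand, GRCm38), was at 64.5, 60.2 and 64.7 FPKM in control and at 114, 106 and 109 FPKM in PGAM5 KD libraries. The groups were far apart relative to their spread, with means of 63.2 ± 2.58 and 109 ± 3.97 FPKM (SD, n = 3), a ratio of 1.73. Its log2 fold change was 0.78 (SE 0.04, adjusted p = 4.71e-05). H2-K1, which encodes the H2-K heavy chain (chr17:33996017-34000347, minus strand), was at 13.2, 10.2 and 12.5 FPKM in control and at 18.4, 13.8 and 13.6 FPKM in PGAM5 KD libraries. KD replicate 1 stood above the other KD libraries, which were close to the highest control library. The log2 fold change of H2-K1 was 0.32 (95% confidence interval 0.01 to 0.64, adjusted p = 0.111). Without KD replicate 1 it was 0.19, and over all alternatives its adjusted p ranged from 0.0223, with voom on recovered fragments, to 0.277.

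B2m, which encodes β2-microglobulin (chr2:122147686-122153083, plus strand), was the most abundant of the 10 genes. It was at 325, 348 and 312 FPKM in control and at 500, 485 and 470 FPKM in PGAM5 KD libraries, a log2 fold change of 0.56 (SE 0.05, adjusted p = 0.000217). The lowest KD library stood well above the highest control library. Within a library, B2m exceeded the sum of H2-D1 and H2-K1 by a factor of 4.18, 4.94 and 4.04 in control and 3.79, 4.05 and 3.83 in PGAM5 KD libraries. These ratios overlapped between groups (exact two-sided permutation p = 0.2). The ratio of H2-D1 to H2-K1 was 4.90, 5.91 and 5.18 in control and 6.18, 7.65 and 8.05 in PGAM5 KD libraries. It was higher in every KD library, by 0.45 on the log2 scale, and the exact two-sided permutation p of 0.1 is the smallest that 3 libraries against 3 allow.

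The heavy chain genes resemble each other, which bears on how fragments were assigned. The CCDS transcripts of H2-K1 and H2-D1 matched over 1515 bases at 88.4% identity. Of all 50-base words in these transcripts, 91.2% in H2-K1 and 85.7% in H2-D1 occurred in no transcript of another gene, against 100% in B2m. Incomplete uniqueness was not limited to heavy chains, with 79.0% in Tapbp, 87.4% in Tap2, 87.5% in Psmb9, 93.5% in Tap1 and 94.2% in Psmb8. Psmb10 and Nlrc5 were at 100%. Of 100-base words, 100% in H2-K1, 95.4% in H2-D1 and 86.0% in Tapbp were unique to the gene. Tapbp also shared 4.11% of its exon length with Zbtb22 on the same strand. Pooling the fragments of H2-K1 with those of the 22 genes that resembled it, H2-D1 included, gave a log2 difference of 0.80, and H2-K1 held between 8.64% and 13.8% of that pool. The pooled value is thus mostly that of the other genes.

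The letters upstream of B2m, H2-K1 and H2-D1 are shown because the 3 genes share elements for which class I promoters are known. These are a κB and an interferon regulatory factor (IRF) element, in either order, followed by an X2/CRE element and a CCAAT box in reverse. Sequences are from RefSeq (GRCm38.p6), which had windows for 8 of the 10 genes. Tap2 and Nlrc5 were the others. The 250 bases before each start were searched on both strands for GGGNNTTNCC (κB), AANNGAAA (IRF), TGACG (X2/CRE) and CCAAT, motifs chosen after the sequences were seen. Capitals mark matches on either strand, which did not overlap one another. In B2m the IRF match came before the κB match, the reverse of the order in H2-K1 and H2-D1. Each of these 2 matches was also on the opposite strand in B2m. The windows of B2m (chr2:122147437-122147685, plus strand) and H2-K1 (chr17:34000348-34000597, minus strand) were, 5′ to 3′:
B2m: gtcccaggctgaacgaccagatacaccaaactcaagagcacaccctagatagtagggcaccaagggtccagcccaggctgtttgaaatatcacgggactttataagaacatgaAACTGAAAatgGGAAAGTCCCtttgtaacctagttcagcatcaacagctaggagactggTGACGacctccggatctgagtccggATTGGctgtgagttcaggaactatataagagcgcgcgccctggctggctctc
H2-K1: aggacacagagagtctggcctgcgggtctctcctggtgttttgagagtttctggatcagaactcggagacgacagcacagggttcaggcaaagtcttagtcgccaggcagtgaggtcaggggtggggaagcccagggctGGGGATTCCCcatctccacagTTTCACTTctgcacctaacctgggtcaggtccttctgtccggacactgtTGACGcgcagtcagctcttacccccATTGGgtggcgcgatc

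The window of H2-D1 lies within the first exon of an M21 transcript, and only the 2 stretches that correspond to those of H2-K1 are shown. A further CCAAT lay nearer its start. H2-K1 has another RefSeq start, whose window is not shown, with a further CCAAT 6 bases before it. The κB and IRF stretches, chr17:34000430-34000458 (minus strand) for H2-K1 and chr17:35262923-35262951 (plus strand) for H2-D1, were:
H2-K1: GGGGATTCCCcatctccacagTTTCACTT
H2-D1: GGGGATTCCCcatctcctcagTTTCACTT

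The stretches from TGACG to the reversed CCAAT, chr17:34000359-34000388 (minus strand) for H2-K1, chr17:35262993-35263022 (plus strand) for H2-D1 and chr2:122147609-122147638 (plus strand) for B2m, were:
H2-K1: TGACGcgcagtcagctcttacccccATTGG
H2-D1: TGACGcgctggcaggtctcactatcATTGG
B2m: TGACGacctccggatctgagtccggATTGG

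In all 3 genes exactly 20 bases lay between TGACG and ATTGG. This spacing was set after the sequences were seen, so its share over all windows is a description and no test. The letters at this spacing occurred in 30 of 32851 promoter windows (0.0913%), those of the 3 genes included. These letters at this spacing were absent from the windows of Tap1, Tapbp, Psmb8, Psmb9 and Psmb10. The windows of Psmb8 and Psmb9 lie wholly within M21 exons of the gene, as do 146 of the 250 bases for Tapbp and 52 for Psmb10. Among 17 other class I and class I-like genes with a window, the letters at this spacing were present in H2-M3. Taken singly, the κB letters occurred in 4.11%, the IRF letters in 21.3%, TGACG in 17.8% and CCAAT in 33.8% of all windows. A match describes letters and is no evidence of binding. The upstream windows of H2-K1 and H2-D1 were 89.5% identical over 190 aligned bases, and they preceded transcripts with log2 fold changes of 0.32 and 0.78.

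Peptide transport and loading genes were next. Tap1 and Tap2 encode both chains of the TAP transporter and lie within 1 block of chromosome 17 together with Psmb8 and Psmb9 (chr17:34181987-34216321, 34.3 kb). Tap1 had the largest log2 fold change of the 10 genes. It was at 4.85, 4.86 and 4.12 FPKM in control and at 8.66, 9.52 and 9.64 FPKM in PGAM5 KD libraries. The KD mean was 2.01 times the control mean, and the log2 fold change was 0.87 (SE 0.08, adjusted p = 0.000286). Tap2 was at 2.27, 1.87 and 2.83 FPKM in control and at 3.66, 4.28 and 3.07 FPKM in PGAM5 KD libraries. Its replicates were scattered, with a coefficient of variation of 20.7% in control and 16.5% in KD libraries, and the gap between groups was small. The log2 fold change of Tap2 was 0.49 (SE 0.14, adjusted p = 0.035), and with voom on recovered fragments it was 0.642. The call for Tap2 was lost without control replicate 1 (adjusted p = 0.0845), control replicate 2 (0.0947), KD replicate 1 (0.078) or KD replicate 2 (0.103), and over all alternatives the adjusted p ranged from 0.00849 to 0.103.

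Tapbp encodes tapasin, which holds empty class I molecules at the TAP transporter. It was at 66.8, 69.4 and 69.2 FPKM in control and at 74.5, 76.3 and 74.9 FPKM in PGAM5 KD libraries. The change was the smallest of the 10 genes, a ratio of 1.10 and a log2 fold change of 0.13 (SE 0.03, adjusted p = 0.0177), and it was called because replicates differed by only 2.08% in control and 1.27% in KD libraries (coefficient of variation). The call for Tapbp was lost when FPKM were scaled to TPM (log2 fold change 0.057, adjusted p = 0.224) or quantile normalized (0.05, adjusted p = 0.285), and without control replicate 1 (adjusted p = 0.0569) or KD replicate 2 (0.0626). Its adjusted p ranged from 0.00826 to 0.285 over all alternatives. A relative of tapasin, Tapbpl, was at 1.59 ± 0.355 FPKM in control and 1.5 ± 0.141 FPKM in PGAM5 KD cells (adjusted p = 0.845).

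The immunoproteasome subunits all rose, by unequal amounts. Psmb8 encodes the subunit that takes the place of Psmb5 and lies 495 bases beyond the end of Tap1. It was at 8.01, 7.61 and 7.62 FPKM in control and at 12.4, 14.8 and 14.2 FPKM in PGAM5 KD libraries, with a log2 fold change of 0.76 (SE 0.07, adjusted p = 0.000381). All KD libraries were well above the control range. Psmb9 encodes the subunit that replaces Psmb6 and is transcribed away from Tap1. It was at 1.65, 1.44 and 1.76 FPKM in control and at 2.60, 2.75 and 2.77 FPKM in PGAM5 KD libraries. The ratio of means was 1.67, and the log2 fold change was 0.50 (SE 0.09, adjusted p = 0.00613), which the added constant of 1 makes smaller for a gene this low. With voom on recovered fragments Psmb9 was at 0.746, near Psmb8 at 0.825, and Psmb10 was at 0.309. Psmb10 encodes the counterpart of Psmb7 and lies on chromosome 8 (chr8:105935735-105938444, minus strand). It was at 18.0, 19.9 and 17.2 FPKM in control and at 22.1, 24 and 22.4 FPKM in PGAM5 KD libraries, with a log2 fold change of 0.30 (SE 0.06, adjusted p = 0.011).

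Psmb9 and Tap1 share 212 bases of annotated exon on opposite strands, which is 5.79% of the Psmb9 and 3.87% of the Tap1 exon length. The sources leave it unclear whether the libraries kept strand, so fragments in these bases cannot be assigned with certainty. Between the RefSeq starts of Psmb9 and Tap1 lie 225 bases (chr17:34187331-34187555). They are shown in part because they lie between the starts of both genes, and all of them fall within exons annotated for Psmb9 in M21. They held a TGACG and a CCAAT but neither the κB nor the IRF letters. The stretch at chr17:34187470-34187499, on the strand of Tap1, was:
Tap1: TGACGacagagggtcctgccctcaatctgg

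Each immunoproteasome subunit was then set against the constitutive subunit that it replaces. The FPKM ratio of Psmb8 to Psmb5 was 0.110, 0.120 and 0.113 in control and 0.143, 0.186 and 0.152 in PGAM5 KD libraries, a log2 difference of 0.48. The ratio of Psmb9 to Psmb6 was 0.0168, 0.0163 and 0.0199 in control and 0.0280, 0.0275 and 0.0277 in PGAM5 KD libraries, a log2 difference of 0.66. For both pairs every KD library exceeded every control library, and the exact two-sided permutation p was 0.1 (0.15 adjusted over the 3 ratios). The ratio of Psmb10 to Psmb7 was 0.511, 0.639 and 0.531 in control and 0.634, 0.627 and 0.621 in PGAM5 KD libraries. These groups overlapped, since control replicate 2 was the highest of all, and the log2 difference was 0.17 (exact permutation p = 0.4, adjusted 0.4), which was 0.267 without control replicate 2 and 0.107 without control replicate 1.

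**Figure D3:**
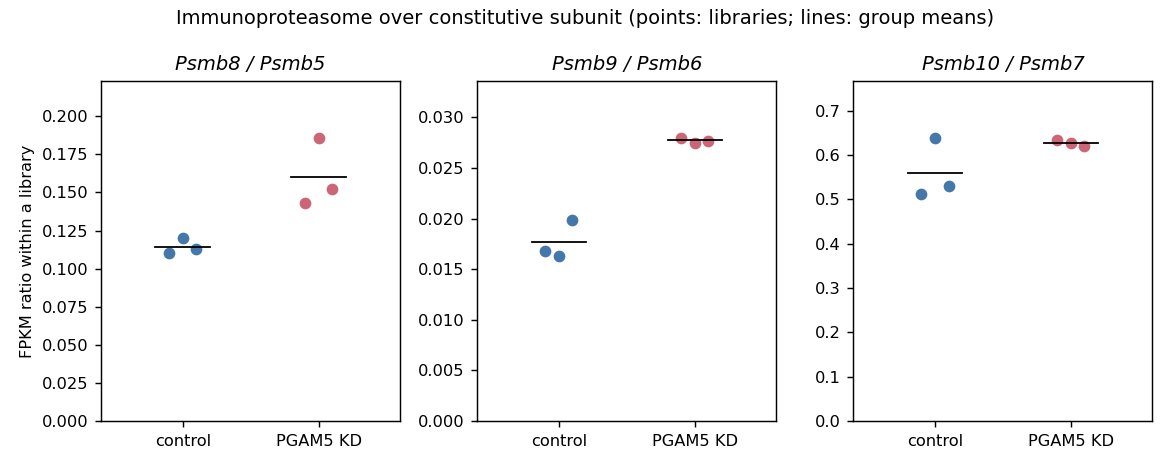
FPKM ratio of each immunoproteasome subunit to its constitutive counterpart within each library. Vertical axes start at 0, points are libraries and lines are group means. The PGAM5 KD points lie above the control points for Psmb8 over Psmb5 and for Psmb9 over Psmb6, while for Psmb10 over Psmb7 the highest point, 0.639, is a control library.

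The size of these ratios depends on the length by which each gene was divided. FPKM were per summed exon length, which counts retained introns. That length was 2.08, 2.71 and 1.30 times the length of a CCDS transcript for Psmb8, Psmb9 and Psmb10. For Psmb5, Psmb6 and Psmb7 it was 1.0, 2.35 and 2.95 times. Per length of the CCDS transcript, control ratios were 0.229 to 0.250 for Psmb8 to Psmb5, 0.0188 to 0.0230 for Psmb9 to Psmb6 and 0.225 to 0.282 for Psmb10 to Psmb7. On either scale the constitutive subunit was the more abundant of each pair, and the difference between groups on the log2 scale is the same. Of the constitutive genes, Psmb5 was also higher in PGAM5 KD cells (67.8 ± 4.70 to 86.5 ± 6.94 FPKM, adjusted p = 0.0111), although only 42.9% of the 50-base words in Psmb5 were unique to it. Psmb6 was at 91.8 ± 6.04 and 97.6 ± 4.03 FPKM (adjusted p = 0.256), and Psmb7 at 32.9 ± 2.03 and 36.4 ± 1.71 FPKM (adjusted p = 0.0957). Of 50-base words, 97.3% in Psmb6 and 71.9% in Psmb7 were unique to the gene.

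Nlrc5, the transactivator (chr8:94434356-94527272, plus strand), was at 2.80, 2.07 and 2.42 FPKM in control and at 3.59, 3.45 and 3.68 FPKM in PGAM5 KD libraries. The KD libraries were close to each other and above all controls, with a log2 fold change of 0.42 (SE 0.10, adjusted p = 0.0164). The log2 fold change of Nlrc5 was 0.581 with voom on recovered fragments. Without KD replicate 3 the adjusted p of Nlrc5 was 0.0565, and over all alternatives it ranged from 0.000364 to 0.0565. Its relative Ciita, the transactivator of class II genes, was at 0.00737 ± 0.00362 FPKM in control and 0.00318 ± 0.00551 FPKM in PGAM5 KD libraries, at most 2 fragments in any library.

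On the FPKM scale, the order of levels in control cells was B2m (328), Tapbp (68.5), H2-D1 (63.2), Psmb10 (18.3), H2-K1 (12.0), Psmb8 (7.74), Tap1 (4.61), Nlrc5 (2.43), Tap2 (2.33) and Psmb9 (1.62). The libraries of neighbours in this order overlapped for Nlrc5 and Tap2 and for no other pair. In PGAM5 KD cells H2-D1 (109) stood above Tapbp (75.2), with every library in that order, the reverse of control cells. H2-K1 and Psmb8 overlapped in PGAM5 KD cells, at 13.6 to 18.4 and 12.4 to 14.8 FPKM, which they did not in control cells. Per length of the CCDS transcript, the control mean of H2-K1 rose to 21.7 and that of Psmb9 to 4.38, the latter then above Tap2 (2.55) and Nlrc5 (2.72).

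Further genes of the pathway were examined in 8 lists with 93 names. Of these, 90 were in the tables and 65 passed the filter on low values. H2-Q8, H2-Q9 and H2-T9 were not analysed here. Among the 65, 27 were higher and 4 lower in PGAM5 KD cells, where 16.8% and 14.9% of all genes tested were, and the median log2 fold change was 0.14. Scaled to TPM, 19 of the 65 were higher and 7 lower, against 1088 and 2282 of all 10540 genes. Without control replicate 3, KD replicate 2 or KD replicate 3, the number lower was 2. The highest median, 0.89, was that of the other class I and class I-like genes.

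**Figure D4:**
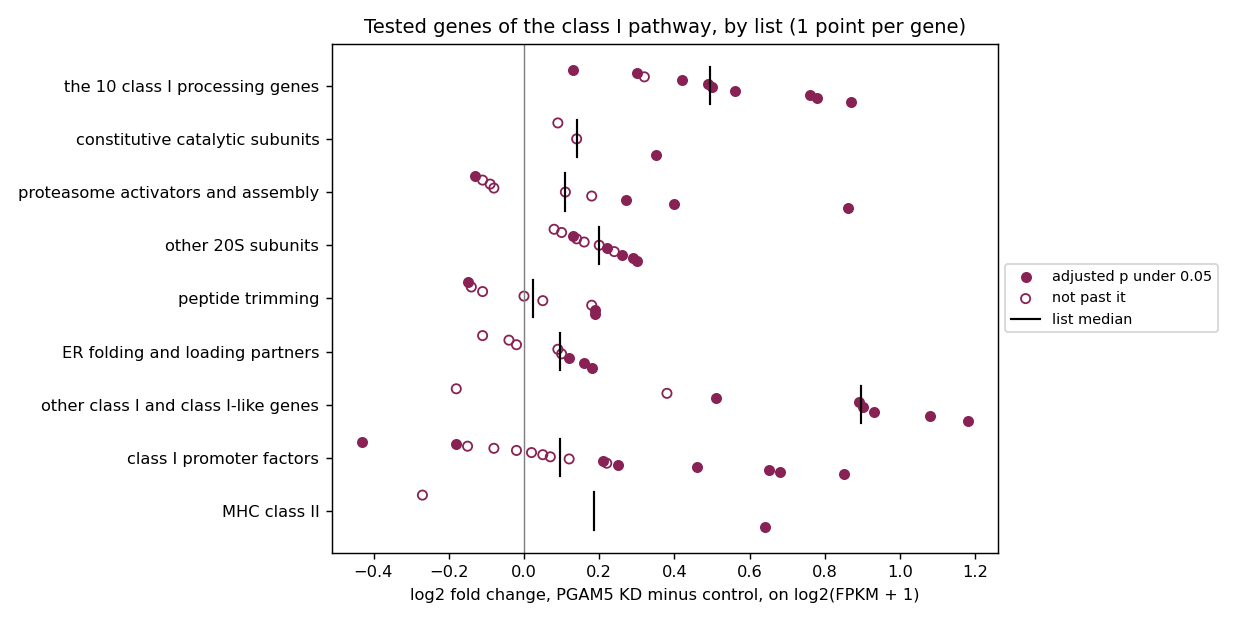
Log2 fold changes of PGAM5 KD over control, on the log2(FPKM + 1) scale, for tested genes of the class I pathway. Each point is a gene, filled where its adjusted p was under 0.05, and black lines are list medians. The nonclassical class I genes extend farthest to the right, up to 1.18 for H2-T23, while most 20S, trimming and folding genes lie within 0.30 of 0.

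Of the other class I and class I-like genes, 6 of 8 tested were higher (16.8% over all genes). Apart from Hfe, the tested genes are nonclassical class I genes, whose products present restricted sets of peptides or engage NK cell receptors. H2-T23, which encodes Qa-1, the ligand of CD94/NKG2A, rose from 9.89 ± 0.656 to 23.7 ± 2.25 FPKM on average (± SD over 3 libraries). The log2 fold change of 1.18 for H2-T23 (adjusted p = 9.44e-05) and that of H2-T24 (1.08, 23.8 ± 0.867 to 51.4 ± 2.68 FPKM, adjusted p = 2.46e-05) were the 2 in all lists that passed the threshold for differential expression on this scale. With a constant of 0.1 H2-T22 (1.15) and H2-Q6 (1.06) also passed it, as they did with voom on recovered fragments (1.17 and 1.08). H2-T22 passed with TPM as well (1.02), and H2-Q6 without control replicate 1 (1.03). H2-T22, a ligand of γδ T cell receptors, rose from 2.59 ± 0.288 to 5.87 ± 0.597 FPKM (log2 fold change 0.93, adjusted p = 0.000543). H2-M3, which presents N-formylated bacterial peptides, rose from 18.1 ± 1.48 to 34.4 ± 1.32 FPKM (0.89, adjusted p = 0.000132). H2-Q6 rose from 3.64 ± 0.793 to 7.57 ± 0.228 FPKM (0.90, adjusted p = 0.00171) and H2-Q4 from 5.81 ± 0.480 to 8.70 ± 0.659 FPKM (0.51, adjusted p = 0.00304). H2-Q5 (0.38, adjusted p = 0.0755) and the iron regulator Hfe (-0.18, adjusted p = 0.274) did not pass. Of 50-base words, 99.4% in H2-M3 and 96.8% in H2-T24 were unique to the gene, but 60.8% in H2-Q4, 65.0% in H2-Q6, 55.3% in H2-T22 and 70.2% in H2-T23, so levels of these 4 genes are less certain.

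Of 9 proteasome activators and assembly factors, 3 were higher and 1 lower, where 16.8% and 14.9% of all genes tested were. Psme2 and Psme1 encode the PA28 cap that opens the proteasome. Psme2 rose from 21.4 ± 2.57 to 39.4 ± 2.09 FPKM (log2 fold change 0.86, adjusted p = 0.000506), and Psme1 rose from 25.3 ± 3.19 to 33.4 ± 1.21 FPKM (0.40, adjusted p = 0.0149). The assembly chaperone Psmg4 was also higher (0.27, adjusted p = 0.0308), while Psme3, the nuclear PA28γ cap, was lower (-0.13, adjusted p = 0.011, and -0.214 with TPM or -0.204 with quantile normalization). The other 5 of the 9 genes did not pass. Among 11 structural and other 20S subunits, 5 were higher (16.8% over all genes) and the other 6 did not pass, with a median of 0.20. They were Psma6, at 212 ± 6.82 and 262 ± 3.46 FPKM (0.30, adjusted p = 0.000691), Psma7 (0.29), Psmb1 (0.26), Psma4 (0.22) and Psmb2 (0.13). Under quantile normalization Psma6 was at 0.193 and Psma4 at 0.146. The call of Psmg4 was lost without either of control replicates 2 and 3 or KD replicates 2 and 3 (adjusted p up to 0.0931), and that of Psmb2 without any single library (up to 0.105). Over all alternatives the adjusted p ranged from 0.0212 to 0.0931 for Psmg4 and from 0.029 to 0.382 for Psmb2. The log2 fold change of Psmb2 fell to 0.054 with TPM and to 0.059 with quantile normalization.

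Of 8 peptide trimming genes 2 were higher and 1 lower, shares near those over all genes (16.8% and 14.9%), and their median was 0.03. Cytosolic aminopeptidase Lap3 and bleomycin hydrolase Blmh each rose by 0.19 on the log2 scale (adjusted p = 0.0113 and 0.0255), and tripeptidyl peptidase Tpp2 was lower (-0.15, adjusted p = 0.0213). Erap1, which trims peptides within the endoplasmic reticulum, was at 12.2 ± 0.121 FPKM in control and 11.3 ± 1.04 FPKM in PGAM5 KD cells (adjusted p = 0.268). Of the 8 folding and loading partners, 3 passed, all upward (16.8% over all genes). They were the chaperone Hspa5 (0.18, adjusted p = 0.0034), glucosidase II subunit Prkcsh (0.16, adjusted p = 0.0395) and the peptide-loading disulfide isomerase Pdia3 (0.12, adjusted p = 0.0178), whose sign turned under quantile normalization (-0.037). Leaving out 1 library moved these small changes little but ended the call of Tpp2 (control replicates 2 and 3, KD replicates 2 and 3, log2 fold changes of -0.159 to -0.139, adjusted p up to 0.0679), Blmh (control replicates 1 and 3, KD replicates 2 and 3, 0.165 to 0.198, up to 0.0813), Pdia3 (control replicates 1 and 3, KD replicate 2, 0.106 to 0.112, up to 0.0615) and Prkcsh (every library but control replicate 3, 0.127 to 0.173, up to 0.11). Over all alternatives the largest adjusted p of these genes was 0.0679, 0.108, 0.384 and 0.227. The call of Hspa5 was lost under quantile normalization (0.063, adjusted p = 0.238) and that of Lap3 with TPM (0.11, adjusted p = 0.0807), and over all alternatives their adjusted p ranged from 6.68e-06 to 0.238 and from 0.00435 to 0.0807. Calreticulin, encoded by Calr, was at 384 ± 6.63 and 413 ± 15.8 FPKM (adjusted p = 0.0589).

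Of 16 factors known to act on class I promoters, 6 were higher, where 16.8% of all genes tested were, and 2 were lower, a share near the 14.9% over all genes. Stat2, an interferon signal transducer, rose from 6.28 ± 0.559 to 12.1 ± 0.225 FPKM (log2 fold change 0.85, adjusted p = 0.00018), Irf8 from 4.82 ± 0.468 to 8.33 ± 0.435 FPKM (0.68, adjusted p = 0.000883) and Irf1 from 3.70 ± 0.351 to 5.48 ± 0.543 FPKM (0.46, adjusted p = 0.00888). Irf9, the DNA-binding subunit of the interferon-induced complex ISGF3, was at 12.4 ± 0.851 and 12.7 ± 0.495 FPKM (adjusted p = 0.796). Atf1, which binds CRE sites, was lower, from 39.8 ± 2.08 to 29.4 ± 2.51 FPKM (-0.43, adjusted p = 0.00415). The RFX subunits that act with NLRC5 did not pass, with adjusted p of 0.592 for Rfx5, 0.14 for Rfxap and 0.254 for Rfxank. Irf2 (0.25), Rela (0.21) and Nfya (-0.18) also passed, and each lost its call when 1 of several libraries was left out. These were control replicates 2 and 3 and any KD replicate for Irf2 (adjusted p up to 0.0897), every library but KD replicate 1 for Rela (up to 0.105), and control replicates 2 and 3 and KD replicates 2 and 3 for Nfya (up to 0.072). Rela also lost its call with TPM (0.137, adjusted p = 0.123) and quantile normalization (0.177, adjusted p = 0.0763), and Irf2 with TPM (0.22, adjusted p = 0.0843). Over all alternatives the adjusted p ranged from 0.00962 to 0.0897 for Irf2, from 0.0117 to 0.123 for Rela and from 0.0042 to 0.072 for Nfya. These 3, and the list genes named here without having passed, other than H2-Q5 and those of lists with 3 or fewer tested genes, were named after their values were seen.

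MHC class II genes, which present peptides from outside the cell, were mostly at or near 0. Only 2 of 11 passed the filter on low values. Cd74, the invariant chain, rose from 113 ± 1.73 to 176 ± 2.91 FPKM (log2 fold change 0.64, adjusted p = 2.45e-05), and H2-DMa was at 1.90 ± 0.174 and 1.42 ± 0.387 FPKM (-0.27, adjusted p = 0.19). H2-Ab1, an essential class II chain, was listed at 0 in all libraries.

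The position of the genes was considered because 7 of the 10 lie in the MHC region of chromosome 17, taken here as chr17:33915899-37483552. Of the 75 tested genes in that region that are not class I processing or class I genes, 19 were higher (25.3%, against 16.8% of all genes tested) and 7 lower (14.9% over all genes), and their median log2 fold change was 0.08. The largest of these changes was that of the immediate early gene Ier3, at a log2 fold change of 0.95 (adjusted p = 7.74e-05). Ier3 was named after its values were seen.

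**Figure D5:**
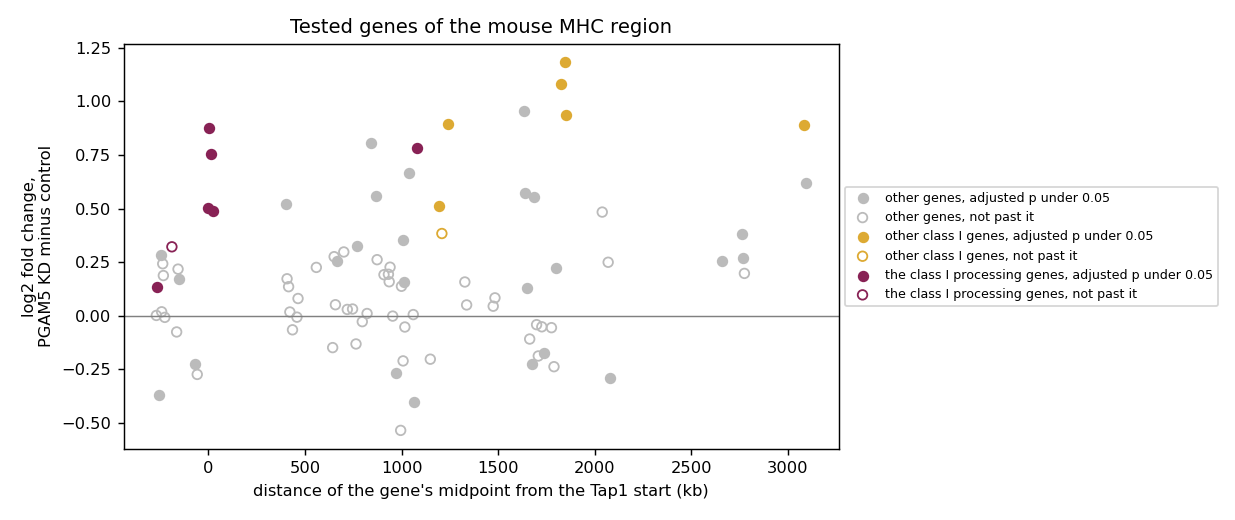
Log2 fold change of PGAM5 KD over control for every tested gene of the MHC region, by distance of its midpoint from the Tap1 start in kb. Filled points had an adjusted p under 0.05. Class I processing genes and other class I genes lie above most of the grey points, of which 19 are filled above 0 and 7 below it.

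Genes outside these lists whose pattern over the 6 libraries was most like the mean standardized profile of the 10 genes were Shisa5 (Pearson r = 0.9987), Ptgs1 (0.9985), Hk1 (0.997), Fam162a (0.9967) and Pfkp (0.9965), out of 470 genes with a mean of at least 5 FPKM and an absolute log2 fold change of at least 0.5. The likeness is a description. It follows mostly the step between groups, and 178 of the 470 genes had r above 0.95. Ptgs1, which encodes cyclooxygenase 1, was at 1.37 FPKM in control and 8.80 FPKM in PGAM5 KD cells on average, and it reached the mean of 5 FPKM only through the KD group. Hk1 and Pfkp encode glycolytic enzymes and were at 27.0 and 11.1 FPKM in control and 38.6 and 17.5 FPKM in PGAM5 KD cells.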

How the data were processed

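RNA was isolated with a spin-column kit, mRNA was selected with poly-T beads, and a sequencing company made the libraries. Per the submitters' processing notes, HISAT2 2.0.5, featureCounts 1.5.0-p3 and mm10 were used; the strand setting is not given in the sources used here. Each library came as a table of FPKM, deposited by the authors. These values are adjusted for depth alone and divide by summed exon length, so genes with retained introns read low.

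Of 54532 gene identifiers, 54495 were in GENCODE M21 and 37 were not. Multiplied by exon length, 96.76% to 97.1% of values were whole multiples of 1 fragment within 0.01 (genes under 1000 fragments); with M21 lengths H2-K1, Tapbp and Psmb8 did not come out whole, so their fragment numbers are approximate. Linear models on log2(FPKM + 1) were fitted in limma 3.58.1 (R 4.3.3; trended eBayes, two-sided, Benjamini-Hochberg over all 10540 genes with a mean of at least 1 FPKM). Single ratios used exact two-sided permutation tests (scipy 1.17.1), whose smallest p is 0.1, and each of the 10 genes tested alone gave 0.1. Resembling transcripts were found with blastn 2.17.0 (at least 85% identity over 200 bases). Alternatives changed the constant (0.1), filter (none or 5 FPKM), scaling, model, block and libraries; voom on recovered fragments called 1985 genes higher and 1892 lower. Named were all 10 genes, Pgam5, up to 5 genes per list past the threshold, all genes of lists with 3 or fewer tested, resembling genes, and the 5 most like the 10 in pattern. The genes and lists were chosen with earlier results of these data known. The code was tested on simulated data. Values of 1 listed gene are not reported here.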

Additional observations from a re-analysis of the deposited data

How the results depend on the processing

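The 10 log2 fold changes kept their sign under every alternative. Of 157 values of single genes under alternatives, 141 kept their side of the threshold, 14 lost the call (Tap2, Tapbp or Nlrc5) and 2 gained it (H2-K1, with voom on recovered fragments and with the replicate block). The count of higher genes among the 10 was 9, and it ranged from 6, with a filter of 5 FPKM that left 7 of them tested, to 10 with voom; without 1 library each it was 7 to 9. Scaling to TPM turned the split over all genes from 1771 higher and 1575 lower to 1088 and 2282, so that 32.3% of calls were upward instead of 52.9%; quantile normalization gave 45.5%. Among the wider lists, genes lower in PGAM5 KD numbered 4, but 7 with TPM, 2 with the replicate block and 2 to 4 without 1 library. Replicate numbers did not pair the libraries (correlations of deviations -0.02, 0.016 and -0.052), and with them as a block 9 of the 10 genes were higher, H2-K1 at an adjusted p of 0.0453 and Tap2 at 0.088. Log2 differences without 1 library were 0.37 to 0.55 for Psmb8 over Psmb5, 0.60 to 0.75 for Psmb9 over Psmb6 and 0.11 to 0.27 for Psmb10 over Psmb7. Alternatives were also followed for 37 other genes that had passed the threshold. Genes named without having passed, and Ier3, were not among them. Of the 37, 26 kept their call throughout and 11 lost it in at least 1 alternative. Among them 1 value reversed, that of Pdia3 under quantile normalization (-0.037). The cause was not tested. With 106 to 304 fragments per library, Psmb9 and Tap2 had the least depth behind them.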
